A study of Homo sapiens with 24 samples.

Results

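Chondrocytes labelled as transfected with WNK2 were compared with chondrocytes labelled as control, both kept in isotonic media. The comparison holds the 4 RNA-seq libraries labelled WNK2 trans Ctr and the 4 labelled WT Ctr, 8 of the 24 libraries analysed, and they were chosen by their labels alone. All come from T/C-28a2, an established human chondrocyte line with wild-type WNK2. Per the study's methods, cells were transfected with a plasmid encoding WNK2 by lipid transfection, the medium was replaced after 48 h by fresh medium with 2% serum, and culture went on for 7 days. The labels name the controls only as control, and no library labelled as given an empty plasmid was analysed here, so the effect of transfection and that of WNK2 cannot be told apart. How long the plasmid persisted and which share of cells took it up are not given in the sources used here. The other 16 libraries are 4 each of WT Sor and WNK2 trans Sor, the same cells with 100 mM sorbitol in the medium for 7 days, and of WNK2- Ctr and WNK2- Sor, cells in which exon 2 of WNK2 was deleted. They entered the fit, so that all groups share an estimate of the spread, and serve here to check the labels. The study names its replicates as biological.

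WNK kinases sense chloride and osmotic stress inside the cell. They phosphorylate the kinases SPAK (encoded by STK39) and OSR1 (encoded by OXSR1), which in turn switch the cotransporters that move sodium, potassium and chloride across the membrane, a step that transcript counts do not show. Chondrocytes of the joint build a matrix of collagens and proteoglycans, type II collagen and aggrecan above all, and under inflammatory signals release cytokines, chemokines and proteases that break it down.

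Total counts ran from 14153002 to 17128840 in the libraries labelled WT Ctr and from 15178553 to 23239491 in those labelled WNK2 trans Ctr. WT Ctr replicate 2 stood apart from the other 7 libraries: on the first principal component of the 500 most variable genes (47.5% of the variance) it lay at −44.6 and the others between −5.05 and 13.7. It also had counts for the fewest genes, 17619, against 19167 to 20161 in the other 7 libraries, and the lowest mitochondrial share, 2.21% of its counts against 2.96% to 3.66%. No pair of replicates agreed within sampling noise (chi-square per degree of freedom 6.09 to 59.7 over 12 pairs), so each library was counted as 1 sample. Values below are normalized counts, each count divided by its library's effective size (TMM) and multiplied by the average effective size over all 24, and are given for replicates 1 to 4 in that order or as mean ± SD (n = 4). Where 2 such values stand together, WT Ctr comes first and WNK2 trans Ctr second. CPM are counts in each 1e6 counts of a library. Gene positions are those of GENCODE 29 on GRCh38.

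WNK2 itself ran against the labels. WNK2 (ENSG00000165238, chromosome 9, 93184916 to 93320572) had 3097, 1441, 2133 and 3409 normalized counts in the libraries labelled WT Ctr and 296, 238, 183 and 291 in those labelled WNK2 trans Ctr. The groups did not overlap, and the mean was 10.0-fold lower under the transfection label, with a log2 fold change of −3.32 (SE 0.21, edgeR adjusted p = 3.88e-11). In raw counts, WNK2 had 1217 to 2568 reads per WT Ctr library and 163 to 290 per WNK2 trans Ctr library, so counting error is small beside this difference. Under sorbitol the order was the other way round, with 303 ± 19 normalized counts in WT Sor and 3033 ± 707 in WNK2 trans Sor. The WNK2- groups had 407 ± 13.9 (Ctr) and 359 ± 46.1 (Sor), above the libraries labelled WNK2 trans Ctr. Counts are per gene, so plasmid and chromosomal transcripts cannot be told apart. No library was moved to another group, every direction below holds for the labels as deposited, and the groups are called the libraries labelled WNK2 trans Ctr and WT Ctr throughout.

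**Figure D1:**
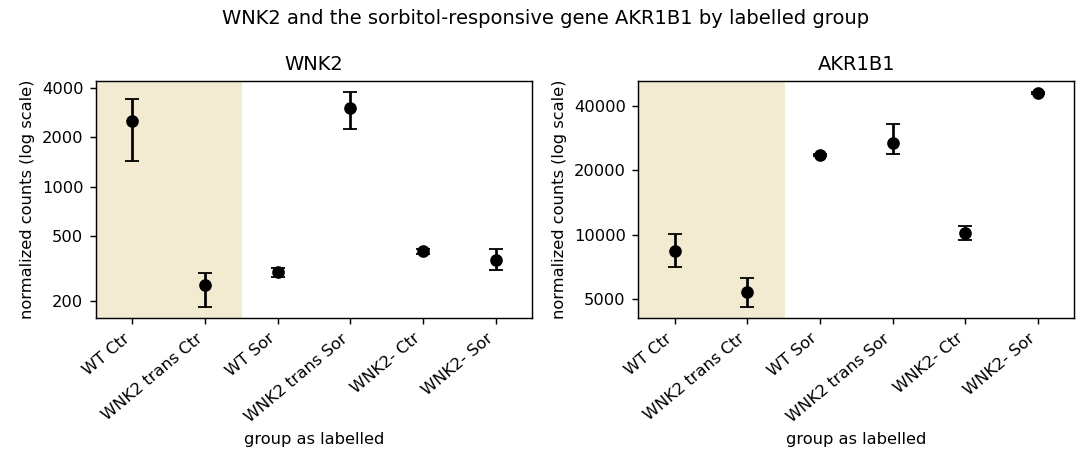
Normalized counts (log scale) of WNK2, left, and AKR1B1, right, in the 6 labelled groups (4 libraries each), with points for group means, bars from the lowest to the highest library and the 2 groups compared shaded. WNK2 was low in WNK2 trans Ctr and high in WT Ctr, while AKR1B1 was low in both of them and in WNK2- Ctr and high in all 3 groups with sorbitol.

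The medium did match the labels in AKR1B1, the aldose reductase that makes sorbitol inside cells and is induced by high tonicity. It had 9140.0, 10106, 7076 and 7281 normalized counts in WT Ctr and 5182, 4572, 6249.8 and 5550.1 in WNK2 trans Ctr, against 23703 ± 305 in WT Sor and 26756 ± 4155 in WNK2 trans Sor. Both isotonic groups thus lay far under both sorbitol groups. Between the isotonic groups, AKR1B1 was lower under the transfection label, with a log2 fold change of −0.64 (SE 0.11, edgeR adjusted p = 0.000215). Of the 17 tested genes of the tonicity response, 4 were higher in the libraries labelled WNK2 trans Ctr (23.5%, against 5.57% of all tested genes). A further 3 were lower (17.6%, against 6.98%), and the median log2 fold change was 0.31 (0.01 over all tested genes). The higher genes were 3 transporter genes, SLC6A9, which carries glycine (539.9 ± 160.5 and 1094 ± 128 normalized counts in WT Ctr and WNK2 trans Ctr, log2 fold change 1.02), SLC6A12, which carries betaine, SLC6A6, which carries taurine, and the transcription factor gene NFATC1. The chaperone genes HSPA4L (log2 fold change −0.71) and HSPH1 (−0.36) were lower with AKR1B1. NFAT5, the main transcription factor of the tonicity response, had 2429 ± 901 and 3119 ± 1183 normalized counts and did not pass the test (edgeR adjusted p = 0.411). Of the 4 higher genes, 2 passed without WT Ctr replicate 2 or without WNK2 trans Ctr replicate 4, and the fit of the 8 libraries alone called 3 of the 17. Not all of these 4 followed the medium as AKR1B1 did. SLC6A12 was higher with sorbitol under both labels (161 ± 19.5 in WT Sor, 93.7 ± 25.7 in WNK2 trans Sor). SLC6A9 had 1370 ± 77.3 in WT Sor but 631 ± 247 in WNK2 trans Sor. NFATC1 had 860 ± 61.6 in WNK2 trans Ctr and 386 ± 63.1 in WNK2 trans Sor. SLC6A6 had 2518 ± 331 in WNK2 trans Ctr and 1721 ± 113 in WNK2 trans Sor. Both were thus also lower in WNK2 trans Sor than in WNK2 trans Ctr.

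The other WNK genes did not differ beyond their spread. WNK1 had 5397, 5496, 7336 and 7695 normalized counts in WT Ctr and 7766, 7600.2, 4732 and 6443 in WNK2 trans Ctr, with a log2 fold change of 0.03 (edgeR adjusted p = 0.902). WNK3 had a log2 fold change of 0.05 (edgeR adjusted p = 0.872) and WNK4 one of 0.11 (edgeR adjusted p = 0.605), and the sign of all 3 turned under some settings. Downstream, STK39 had 902, 1072, 1009 and 1037 normalized counts in WT Ctr and 621, 687, 551 and 627 in WNK2 trans Ctr. Every library labelled WNK2 trans Ctr lay under every WT Ctr library, with a log2 fold change of −0.69 (SE 0.10, edgeR adjusted p = 2.26e-05). OXSR1 had 2777 ± 237 and 2445 ± 220.2 normalized counts, overlapping groups and a log2 fold change of −0.18 (edgeR adjusted p = 0.189). NEDD4L, a ubiquitin ligase of ion transporters, was lower (−0.80, edgeR adjusted p = 1.11e-05), and SGK1, a kinase that acts on it, was higher (0.35, edgeR adjusted p = 0.00293), though 1 WNK2 trans Ctr library of SGK1 lay within the WT Ctr range. The cation-chloride cotransporter genes SLC12A2, SLC12A4 and SLC12A7 did not pass the test. In all, 1 of the 18 tested genes of the pathway was higher (5.56%, against 5.57% of all tested genes) and 3 lower (16.7%, against 6.98%), WNK2 among them.

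Across the transcriptome, 2082 of 16600 tested genes passed the threshold (edgeR adjusted p under 0.05), which is 12.5%. Of these, 924 were higher in the libraries labelled WNK2 trans Ctr (5.57% of tested genes) and 1158 lower (6.98%). A change of at least 2-fold was reached by 499 of them (3.01%), 260 higher (1.57%) and 239 lower (1.44%). The 2 groups did not overlap in 2038 genes (12.3%), and 1525 genes (9.19%) both passed the test and did not overlap. The median log2 fold change of all tested genes was 0.01. Fitting the 8 libraries alone left 747 calls (366 higher, 381 lower), and leaving out WT Ctr replicate 2 left 1520. By annotated type, 1885 of the called genes were protein coding and 72 were lincRNA genes.

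**Figure D2:**
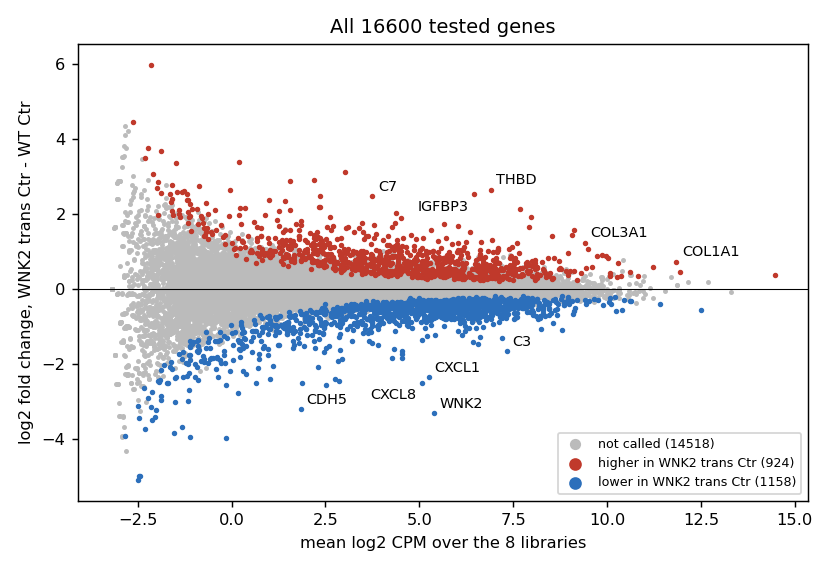
Log2 fold change (WNK2 trans Ctr minus WT Ctr) against the mean log2 CPM over the 8 libraries for all 16600 tested genes, 1 point per gene, coloured where the edgeR adjusted p was under 0.05. The 924 genes higher and 1158 lower lie on both sides of 0, and WNK2, CXCL8 and CXCL1 are among the lowest points at their level while IGFBP3, THBD and C7 are among the highest.

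Among well-measured protein-coding genes (mean log2 CPM of 3 or more), the 12 largest rises ran from 1.71 to 3.13 on the log2 scale. IGFBP3, the main carrier of insulin-like growth factors in blood, had 626, 835, 625 and 625 normalized counts in WT Ctr and 3473, 4036, 4544 and 3576 in WNK2 trans Ctr. That is a 5.76-fold higher mean with no overlap, and a log2 fold change of 2.53 (SE 0.11, edgeR adjusted p = 7.2e-14), the smallest p of all tested genes. IGFBP5, a carrier of the same family, went from 1816 ± 229 to 7908 ± 922 (4.35-fold). THBD (ENSG00000178726, chromosome 20, 23045633 to 23049741) encodes thrombomodulin, a receptor on endothelial and other cells that turns thrombin towards anticoagulant protein C. It had 880.2, 891, 818 and 919.9 normalized counts in WT Ctr and 6359.9, 4569, 5394 and 5686 in WNK2 trans Ctr, a log2 fold change of 2.65 (SE 0.12, edgeR adjusted p = 1.07e-13). C7, a component of the complement membrane attack complex, had 118, 118, 94.1 and 85.0 in WT Ctr and 637, 526, 589 and 577 in WNK2 trans Ctr. Its mean was 5.59-fold higher under the transfection label (log2 fold change 2.48, SE 0.17, edgeR adjusted p = 7.49e-11).

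NOTCH3, a Notch receptor best known from smooth muscle and pericytes, had 2666, 1397, 2485 and 3094 normalized counts in WT Ctr and 9764, 9166, 8237 and 9166 in WNK2 trans Ctr. WT Ctr replicate 2 was its lowest library, and the log2 fold change was 1.91 (SE 0.20, edgeR adjusted p = 2.76e-07). The largest fold was that of C3orf80, an uncharacterised open reading frame, with 80.8, 22.5, 61.7 and 42.5 in WT Ctr and 474, 358, 451 and 549 in WNK2 trans Ctr (8.78-fold, log2 fold change 3.13, SE 0.32, edgeR adjusted p = 1.83e-07). The remaining 6 genes ran from 1.71 to 2.02 on the log2 scale. They were TMOD1, which caps actin filaments (189 ± 30.5 and 768 ± 81.1 normalized counts), APOE, a lipoprotein component (226 ± 104 and 846 ± 226), GRIK2, a kainate receptor subunit (113 ± 27.9 and 381 ± 76.0), THBS2, a matrix glycoprotein (216 ± 84.3 and 725 ± 237), COL5A3, a type V collagen chain (535 ± 224 and 1767 ± 175), and ANGPTL4, an inhibitor of lipoprotein lipase (142 ± 31.3 and 464 ± 76.1).

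**Figure D3:**
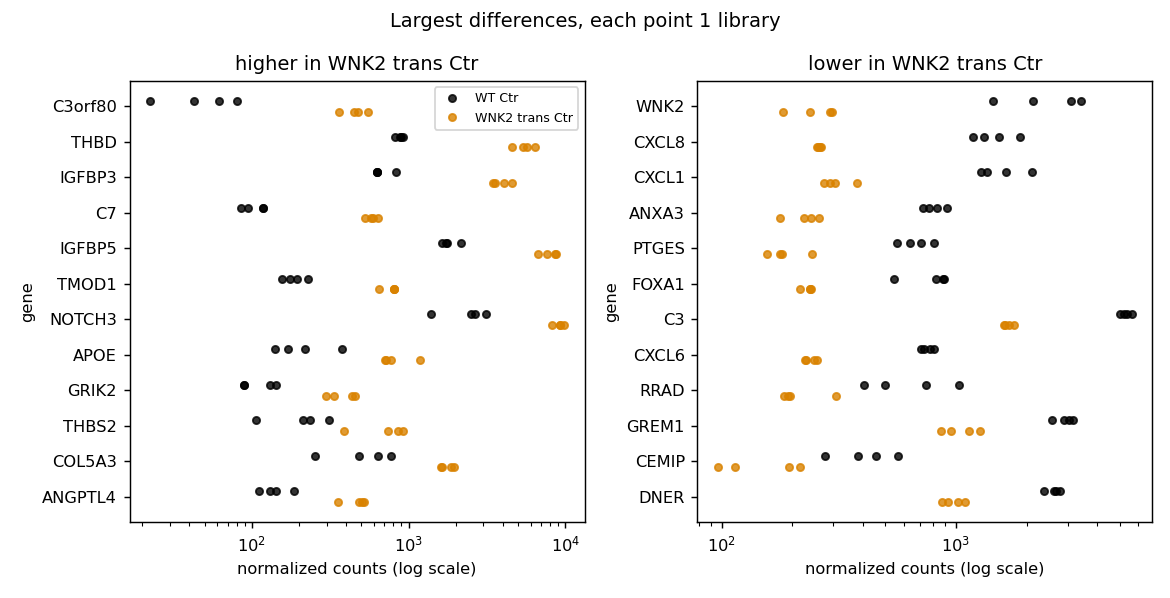
Normalized counts (log scale) of the 12 largest rises, left, and the 12 largest falls, right, among well-measured protein-coding genes whose groups did not overlap, each point 1 library and each group 4 points. The distance between the black WT Ctr points and the orange WNK2 trans Ctr points is widest for C3orf80 at 8.78-fold and for WNK2 at 10.0-fold.

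After WNK2, the largest falls among protein-coding genes at a mean log2 CPM of 3 or more were CXCL8 and CXCL1, which encode chemokines that draw neutrophils, and another such chemokine gene, CXCL6, stood among the 12. CXCL8 had 1184, 1869.9, 1523 and 1313 normalized counts in WT Ctr and 257, 262, 265 and 256 in WNK2 trans Ctr. All 4 libraries labelled WNK2 trans Ctr lay within 10 normalized counts of each other and under every WT Ctr library, with a mean 5.65-fold lower and a log2 fold change of −2.50 (SE 0.13, edgeR adjusted p = 2.16e-12). CXCL1 had 1639.9, 2104, 1273 and 1351 in WT Ctr and 303, 289, 377 and 275 in WNK2 trans Ctr, a log2 fold change of −2.36 (SE 0.15, edgeR adjusted p = 2.18e-11). CXCL6 had 808, 771, 709 and 729 in WT Ctr and 255, 229, 227 and 247 in WNK2 trans Ctr, a log2 fold change of −1.65 (SE 0.13, edgeR adjusted p = 1.87e-09). CXCL8 and CXCL1 had their highest value in WT Ctr replicate 2, and leaving out any 1 library kept all 3 calls.

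Promoters of these 3 neighbouring genes of chromosome 4 are shown because they share a match to a site of NF-kB, the transcription factor best known for inducing these chemokines. The windows span 250 bases before to 50 after the RefSeq start (GRCh38.p14, plus strand), 5′ to 3′, with capitals for the letters GGAATTTCC, which were searched on both strands. They lie at chr4:73740319-73740618 for CXCL8, chr4:73869143-73869442 for CXCL1 and chr4:73836428-73836727 for CXCL6.
CXCL8: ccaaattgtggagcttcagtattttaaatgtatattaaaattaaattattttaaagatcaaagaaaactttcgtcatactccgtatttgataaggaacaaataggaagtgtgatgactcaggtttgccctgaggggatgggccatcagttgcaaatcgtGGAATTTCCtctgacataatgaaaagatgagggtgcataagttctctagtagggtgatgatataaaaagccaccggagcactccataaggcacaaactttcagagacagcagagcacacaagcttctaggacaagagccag
CXCL1: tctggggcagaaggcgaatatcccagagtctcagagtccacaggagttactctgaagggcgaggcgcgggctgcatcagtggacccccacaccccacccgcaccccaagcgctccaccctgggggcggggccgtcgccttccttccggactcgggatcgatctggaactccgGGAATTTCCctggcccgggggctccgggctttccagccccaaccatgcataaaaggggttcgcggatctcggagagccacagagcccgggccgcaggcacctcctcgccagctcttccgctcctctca
CXCL6: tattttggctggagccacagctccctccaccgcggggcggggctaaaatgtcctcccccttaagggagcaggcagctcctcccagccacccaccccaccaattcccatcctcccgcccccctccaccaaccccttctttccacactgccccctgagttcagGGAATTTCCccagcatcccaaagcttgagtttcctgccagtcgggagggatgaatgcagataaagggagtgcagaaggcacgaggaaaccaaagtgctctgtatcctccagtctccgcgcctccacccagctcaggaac
The match began 91 bases before the start in CXCL8, 78 in CXCL1 and 89 in CXCL6. These letters stand in 129 of 27305 promoter windows of that table (0.472%), and in 51 of the 11445 tested genes that have a window (0.446%). They were in 10 of 896 windows of genes lower under the transfection label (1.12%) and in 0 of 651 windows of genes that were higher. The 10 include CXCL8, CXCL1 and CXCL6, so that share is not independent of the genes shown. A sterol response site was searched too. It stood in 1 of 28 windows of tested cholesterol genes and in 0 of 11 windows of the lower ones (0.0437% of all tested genes with a window). Not every gene with an NF-kB match was lower. CXCL2 and CXCL3 of the same family hold it 77 and 78 bases before their starts. CXCL2 stood at 99.1 ± 21.9 and 103 ± 18.3 normalized counts (log2 fold change 0.06). CXCL3 had a log2 fold change of −0.68 that did not pass the test (edgeR adjusted p = 0.187). REL (log2 fold change −0.08) and ICAM1 (0.03) hold it too and did not pass.

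Among the other large falls, C3 encodes the central component of complement. It had 5357, 5193, 5027 and 5617 normalized counts in WT Ctr and 1602, 1771, 1680.0 and 1617 in WNK2 trans Ctr, with a log2 fold change of −1.67 (SE 0.09, edgeR adjusted p = 2.16e-12). C3 and C7 thus lay on opposite sides of 0. PTGES, the prostaglandin E synthase induced in inflamed joints, had 805, 636, 558 and 706 in WT Ctr and 155, 180.3, 244 and 177 in WNK2 trans Ctr (log2 fold change −1.84, SE 0.15, edgeR adjusted p = 1.95e-09). ANXA3, a calcium-dependent phospholipid-binding protein, had 829.6, 765, 725 and 912 in WT Ctr and 259.9, 178, 241 and 224 in WNK2 trans Ctr, a log2 fold change of −1.84 (SE 0.10, edgeR adjusted p = 2.16e-12). FOXA1, a pioneer transcription factor of epithelia, went from 782 ± 163 to 233 ± 11.6, RRAD, a small GTPase that restrains calcium channels, from 669 ± 278 to 220.2 ± 58.0, CEMIP, which takes part in breaking down hyaluronan, from 420.1 ± 122 to 155 ± 58.4, and DNER, a Notch ligand of neurons, from 2612 ± 173 to 976 ± 98.3. GREM1, a secreted antagonist of bone morphogenetic proteins, had 2568, 2873, 3026 and 3147 normalized counts in WT Ctr and 1134, 947, 865 and 1267 in WNK2 trans Ctr (log2 fold change −1.46, SE 0.12, edgeR adjusted p = 2.01e-09). The groups did not overlap in any of these, as the rule for naming them required.

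Matrix genes made up the clearest block of rises. The gene lists counted above and below were chosen with earlier results of these data known, so their shares are no independent evidence. Of 39 tested genes of cartilage and other connective tissue matrix, 20 were higher in the libraries labelled WNK2 trans Ctr (51.3%, against 5.57% of all tested genes) and 2 lower, with a median log2 fold change of 0.59. COL3A1, the fibrillar type III collagen, had 8184, 8125, 8544 and 7986 normalized counts in WT Ctr and 19966, 19007, 18910.1 and 19335 in WNK2 trans Ctr. The libraries within each group were close together and the 2 groups far apart (log2 fold change 1.23, SE 0.08, edgeR adjusted p = 1.34e-10). HAS2, a hyaluronan synthase, had 2169, 2895, 2711 and 2285 in WT Ctr and 9044, 7957, 6689 and 7732 in WNK2 trans Ctr (log2 fold change 1.64, SE 0.11, edgeR adjusted p = 6.98e-11). POSTN, a matricellular protein of ligament and bone surface, went from 4212 ± 583 to 11239 ± 1298, and COL4A1, a chain of basement membrane collagen, from 14394 ± 1585 to 25532 ± 2795. COL1A1, the main collagen of bone and tendon, had 62788, 41361, 51650.4 and 56901 normalized counts in WT Ctr and 89893, 85259, 98969.8 and 76870.4 in WNK2 trans Ctr (log2 fold change 0.72, SE 0.13, edgeR adjusted p = 0.000375). The 2 lower genes were HAPLN1, which links aggrecan to hyaluronan (1488 ± 195 and 851 ± 110.3 normalized counts, log2 fold change −0.81, SE 0.12, edgeR adjusted p = 4.39e-05), and THBS1, a thrombospondin (log2 fold change −0.80). The count of higher genes was 17 without WT Ctr replicate 2 and 15 in the fit of the 8 libraries alone.

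ACAN and COL2A1, the aggrecan and type II collagen genes that define cartilage, were among the higher genes but were measured at low counts, 15 to 64 reads of ACAN and 46 to 95 of COL2A1 per WT Ctr library. ACAN had 77.2, 17.8, 68.2 and 75.7 normalized counts in WT Ctr and 223, 130.3, 127 and 142 in WNK2 trans Ctr. The groups did not overlap, WT Ctr replicate 2 lay far under the other 3 of its group, and the log2 fold change was 1.38 (SE 0.33, edgeR adjusted p = 0.00524). COL2A1 had 115, 54.5, 67.1 and 94.3 in WT Ctr and 160.4, 184, 195 and 178 in WNK2 trans Ctr (log2 fold change 1.12, SE 0.21, edgeR adjusted p = 0.000673). SOX9, the transcription factor that sets the chondrocyte fate, had 0 counts in each of the 8 libraries, which allows up to 0.129 to 0.212 CPM depending on the library, counting error only. Of 15 chondrocyte markers, 10 were tested, and SOX9 and CHAD were at 0 in all 8 libraries. Of the 10, 2 were higher (ACAN and COL2A1, 20%, against 5.57% of all tested genes). HAPLN1 was lower (10%, against 6.98%). The summed level of the 15 was 101 to 113 CPM in WT Ctr and 78.4 to 97.8 in WNK2 trans Ctr. HAPLN1 made up 65.3% to 83.2% and 44.2% to 53.6% of it.

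Some fibroblast markers were higher beside the matrix genes. Of 11 such markers, 9 were tested. Of the 9, 3 were higher (COL1A1, COL3A1 and PDGFRB, 33.3%, against 5.57% of all tested genes). VIM was lower (11.1%, against 6.98%). COL1A1 and COL3A1 are on both lists, and THY1 was at 0 in all 8 libraries. The summed level of the 11 was 3232 to 4102 CPM in WT Ctr and 5619 to 6459 in WNK2 trans Ctr. COL1A1 held most of these reads, 34926 to 52071 per WT Ctr library and 66897 to 104059 per WNK2 trans Ctr library, so the sum mainly follows that gene. COL1A2 had at most 16 reads in any library, and FAP, PDGFRA, PRRX1, S100A4 and TWIST1 did not pass the test. PDGFRB, the receptor of platelet-derived growth factor on mesenchymal cells, had 2618, 1641, 2358 and 2833 in WT Ctr and 5823, 5469.9, 5366 and 5359 in WNK2 trans Ctr (log2 fold change 1.22, SE 0.14, edgeR adjusted p = 7.37e-07). VIM, vimentin, had 5383, 10106, 5861 and 4612 in WT Ctr and 4273, 3995, 5508 and 4129.8 in WNK2 trans Ctr, and its call was lost in 7 settings, with the highest p without WT Ctr replicate 2 (edgeR adjusted p = 0.297). In bulk RNA, fewer cells of a type and less RNA per cell cannot be told apart, and the part of these markers in the matrix result was not tested.

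Markers of other cells were few or mixed in direction. Of 9 endothelial markers, 8 were tested, 2 were lower (25%, against 6.98% of all tested genes) and 0 higher. The log2 fold change was above 0 in 4 of the 8 and below 0 in 4. ERG had the highest, 1.13 (12.5 ± 6.5 and 27.5 ± 3.19 normalized counts), and did not pass the test (edgeR adjusted p = 0.0637). CDH5, the cadherin of endothelial junctions, had 153, 159.9, 199 and 259 normalized counts in WT Ctr and 26.1, 17.2, 19.1 and 21.8 in WNK2 trans Ctr, a mean 9.21-fold lower (log2 fold change −3.20, SE 0.18, edgeR adjusted p = 4.15e-12). TIE1, an endothelial receptor kinase, went from 44.6 ± 12.3 to 9.67 ± 2.63 (log2 fold change −2.20, edgeR adjusted p = 3.66e-06), while PECAM1 stood at 493 ± 87.6 and 578 ± 121 and did not pass the test (log2 fold change 0.23, edgeR adjusted p = 0.337), KDR had at most 5 reads in any library, and the summed level was 41.3 to 44.4 CPM in WT Ctr and 30.4 to 44.9 in WNK2 trans Ctr. THBD, known from endothelium too, lay on the other side. Of 10 blood cell markers, 2 were tested, and 1 of them, CD14, was higher (50%, against 5.57% of all tested genes). CD14 had 158 ± 27.4 and 313 ± 71.5 normalized counts (log2 fold change 0.98, edgeR adjusted p = 0.000227). PTPRC had at most 4 reads in any library, and the summed level was 8.06 to 11 and 13.0 to 20.6 CPM. Of 10 epithelial markers, 6 were tested and ESRP1 alone was lower (log2 fold change −0.86, edgeR adjusted p = 0.00728). That is 16.7% of the 6, against 6.98% of all tested genes, and 0 were higher. KRT8 stood at 8879 ± 2038 and 9489 ± 1563 normalized counts and EPCAM at 14.5 ± 5.57 and 27.9 ± 4.19, and the summed level was 612 to 941 and 661 to 957 CPM.

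Inflammatory mediators leaned lower in the libraries labelled WNK2 trans Ctr. Of 25 tested genes, 12 were lower (48%, against 6.98% of all tested genes) and 4 higher (16%, against 5.57%). The median log2 fold change was −0.48. Beside CXCL8, CXCL1, CXCL6 and PTGES, the lower genes held the cytokine genes IL6 (1303 ± 254.5 and 660 ± 74.1 normalized counts in WT Ctr and WNK2 trans Ctr, log2 fold change −0.98), LIF (1797 ± 532 and 828 ± 69.1, log2 fold change −1.12) and CSF3 (255 ± 77.7 and 42.8 ± 7.0, log2 fold change −2.56), named after their values were seen. IL1B had 169, 131, 89.8 and 135 normalized counts in WT Ctr and 78.3, 54.9, 101 and 97.7 in WNK2 trans Ctr. The 2 groups overlapped, the log2 fold change was −0.67 (SE 0.18, edgeR adjusted p = 0.013), and in the fit of the 8 libraries alone it did not pass (adjusted p = 0.160), nor without WNK2 trans Ctr replicate 2 (0.0677). The 4 higher genes were CSF1, CXCL12, IL33 and TNFSF15. CXCL12, a chemokine of stromal cells, had 60.6 ± 5.89 and 149 ± 27.3 normalized counts (log2 fold change 1.30), and IL33 rested on few reads, 1.73 ± 1.5 and 11.3 ± 4.53 normalized counts. The fit of the 8 libraries alone called 9 of the 25 genes in place of 16.

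NF-kB pathway genes and interferon-induced genes leaned the same way with smaller differences. Of 24 tested genes of the NF-kB pathway, 8 were lower (33.3%, against 6.98% of all tested genes) and 1 higher (4.17%, against 5.57%). Their median was −0.22 on the log2 scale. SOD2, the mitochondrial superoxide dismutase that NF-kB induces, had 7054, 8326, 7193 and 6251 normalized counts in WT Ctr and 4512, 4589.9, 4957 and 4538 in WNK2 trans Ctr (log2 fold change −0.63, SE 0.08, edgeR adjusted p = 5.64e-06). NFKBIZ, an inducible cofactor, stood at −0.60, IRAK2, a kinase of the interleukin-1 receptor pathway, at −0.54, and NFKB1, which encodes the p105 and p50 subunit, at −0.37 (edgeR adjusted p = 0.00122). RELA (0.07), TNFAIP3 (0.06) and ICAM1 (0.03) did not pass the test, and VCAM1, an adhesion molecule, was the higher gene at 0.57. Of 35 interferon-induced genes, 9 were lower (25.7%, against 6.98% of all tested genes) and 1 higher (2.86%, against 5.57%), with a median of −0.06. The viral RNA sensor IFIH1 had 299 ± 83.7 and 171 ± 18.6 normalized counts (log2 fold change −0.81, edgeR adjusted p = 0.000576), the ISG15 ligase HERC5 1371 ± 194 and 856 ± 55.5 (log2 fold change −0.68, edgeR adjusted p = 2.99e-05), its relative HERC6 523 ± 116 and 316 ± 44.4 and the ISG15 protease USP18 139 ± 30.5 and 75.7 ± 14.2. WT Ctr replicate 2 was the highest of the 8 libraries in all 4. Without it, 6 of the 35 interferon genes passed in place of 10, and 4 in the fit of the 8 libraries alone, which also left 4 of the 24 NF-kB genes in place of 9. None of 14 tested genes of MHC class I presentation passed in edgeR or DESeq2 and 0 had an unadjusted p under 0.05, B2M standing at 25537 ± 7603 and 23532 ± 3266 normalized counts.

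**Figure D4:**
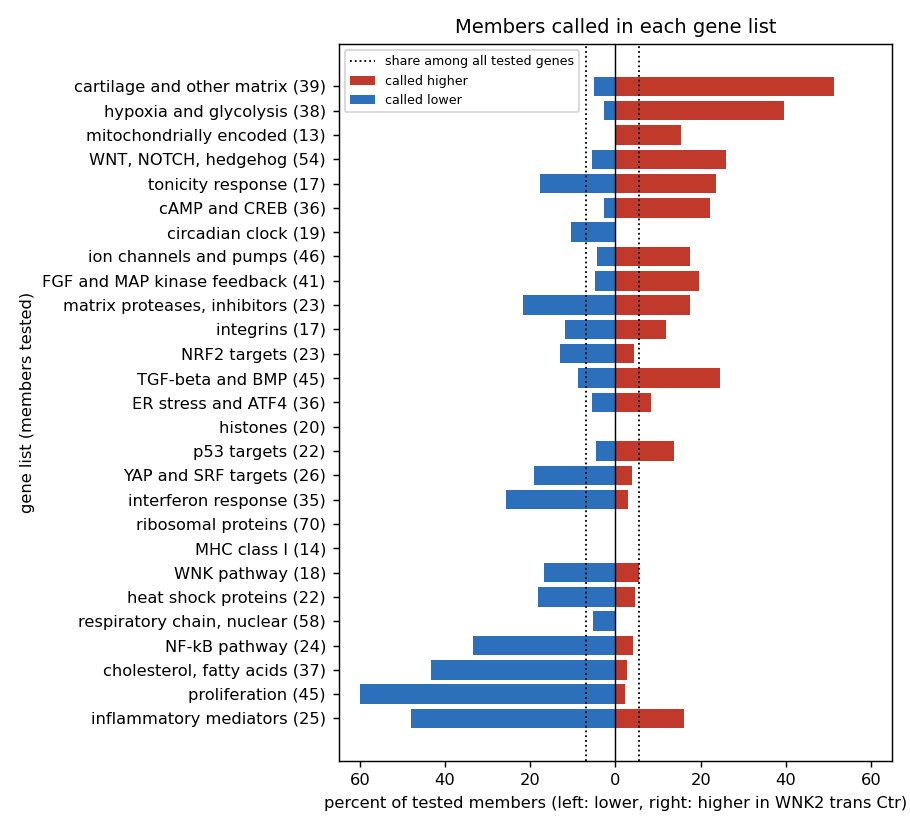
Percent of tested members called lower (blue, left) and higher (red, right) in the libraries labelled WNK2 trans Ctr for 27 gene lists, ordered by median log2 fold change, with the number of tested members in brackets and dotted lines at the shares among all tested genes (6.98% lower, 5.57% higher). Matrix genes have the largest share higher (51.3%) and proliferation genes the largest share lower (60%).

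Most proliferation genes were lower. Of 45 tested genes of DNA replication and mitosis, 27 were lower (60%, against 6.98% of all tested genes) and 1 higher (2.22%, against 5.57%). The median log2 fold change was −0.42. CCND1, cyclin D1, had 1943, 1547, 2070.5 and 2518 normalized counts in WT Ctr and 1056, 876, 725 and 1068 in WNK2 trans Ctr, a log2 fold change of −1.12 (SE 0.12, edgeR adjusted p = 5.78e-07). AURKA, a kinase of the mitotic spindle, had 7477, 7399, 6512 and 6576 in WT Ctr and 4051, 4028, 4485 and 4389.5 in WNK2 trans Ctr (log2 fold change −0.72, SE 0.07, edgeR adjusted p = 3.69e-08). TPX2, which targets AURKA to the spindle, went from 12742 ± 1146 to 8022 ± 224, and RRM2, a subunit of ribonucleotide reductase, from 6563 ± 830.3 to 3974 ± 69.6. MKI67 stood at −0.43 on the log2 scale. CDKN1A, the inhibitor p21, was the gene that was higher (1593 ± 441 and 2284 ± 300.1 normalized counts, log2 fold change 0.52, edgeR adjusted p = 0.037), with overlapping groups. Its call was lost in 7 settings, among them without WT Ctr replicate 2 (edgeR adjusted p = 0.155), where 24 of the list passed. The fit of the 8 libraries alone called 17. Of 22 tested p53 targets, 3 were higher (13.6%, against 5.57% of all tested genes) and 1 lower (4.55%, against 6.98%). Of the higher ones, GDF15, a stress cytokine, went from 730.0 ± 222 to 1377 ± 275, TNFRSF10B, a death receptor, from 2142 ± 126 to 2617 ± 101, and CDKN1A is given above. Without WT Ctr replicate 1, 5 of these targets were higher, and without WNK2 trans Ctr replicate 4, 2 of the 22 passed.

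Cholesterol and fatty acid genes leaned lower, by less than 2-fold each. Of 37 tested genes, 16 were lower (43.2%, against 6.98% of all tested genes) and 1 higher (SCAP, 0.36). The share higher was 2.7%, against 5.57%, and the median log2 fold change was −0.22. MSMO1, a demethylase of sterol synthesis, had 2224, 3199, 2356 and 2245 normalized counts in WT Ctr and 1650.3, 1534, 1537 and 1380.1 in WNK2 trans Ctr, a log2 fold change of −0.72 (SE 0.11, edgeR adjusted p = 4.66e-05). SQLE, squalene epoxidase, had 2676, 2940.5, 2778 and 3001 in WT Ctr and 2211, 2040.2, 2134 and 1878 in WNK2 trans Ctr (log2 fold change −0.46, SE 0.07, edgeR adjusted p = 5.57e-05). FDFT1, squalene synthase, went from 5781 ± 1155 to 3917 ± 232 and HSD17B7, a later enzyme of the pathway, from 255 ± 59.2 to 138 ± 21.4. WT Ctr replicate 2 was the highest library for MSMO1, FDFT1 and HSD17B7. Without it, 15 genes of the list passed, and 6 in the fit of the 8 libraries alone.

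Hypoxia and glycolysis genes leaned higher. Of 38 tested genes, 15 were higher (39.5%, against 5.57% of all tested genes) and 1 lower (2.63%, against 6.98%). The median log2 fold change was 0.32. NDRG1, a gene strongly induced by low oxygen, had 948, 920.2, 876 and 912 normalized counts in WT Ctr and 2100.5, 2012, 2034 and 1839.7 in WNK2 trans Ctr (log2 fold change 1.13, SE 0.09, edgeR adjusted p = 1.81e-09). SLC2A3, a glucose transporter, had 744, 1010.2, 847 and 729 in WT Ctr and 1893, 1721, 1612 and 1637 in WNK2 trans Ctr (log2 fold change 1.04, SE 0.10, edgeR adjusted p = 2.53e-08), and EPAS1, which encodes the hypoxia-inducible factor HIF-2alpha, 2355 ± 285 and 4321 ± 437 (log2 fold change 0.88, SE 0.09, edgeR adjusted p = 1.25e-07). The lower gene was ADM, adrenomedullin, itself a known hypoxia target, with 1393, 1283, 890.3 and 1317 normalized counts in WT Ctr and 459, 448, 605 and 577 in WNK2 trans Ctr (log2 fold change −1.23, SE 0.12, edgeR adjusted p = 1.28e-07). In the fit of the 8 libraries alone, 10 genes of the list were higher.

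**Figure D5:**
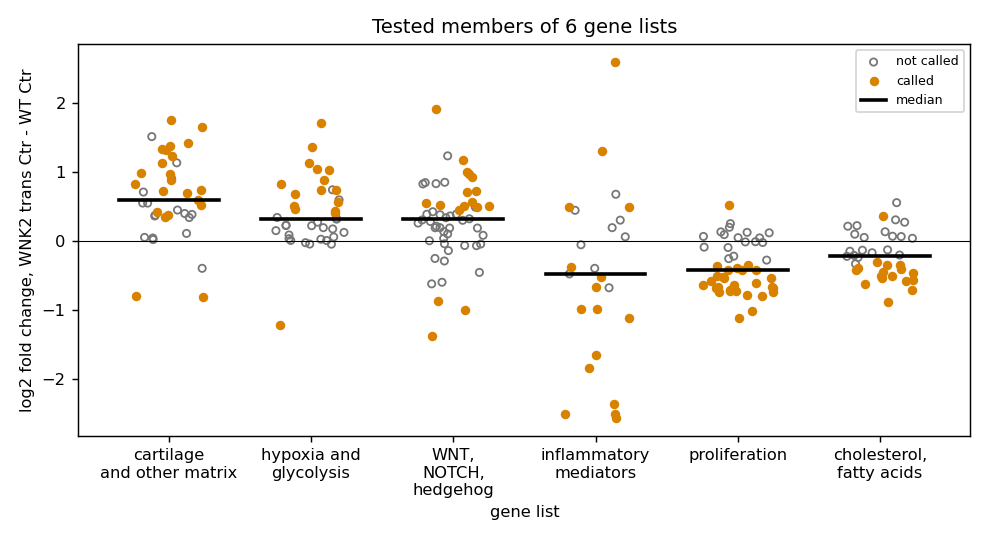
Log2 fold change (WNK2 trans Ctr minus WT Ctr) of the tested members of 6 gene lists, 1 point per gene, filled where the edgeR adjusted p was under 0.05, with a bar at each list's median. Medians are 0.59 for matrix, 0.32 for hypoxia and glycolysis, 0.31 for WNT, NOTCH and hedgehog, −0.48 for inflammatory mediators, −0.42 for proliferation and −0.22 for cholesterol and fatty acids.

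Among signalling pathways, 14 of 54 tested genes of WNT, NOTCH and hedgehog were higher (25.9%, against 5.57% of all tested genes). A further 3 were lower (5.56%, against 6.98%). Of the Notch genes, NOTCH3 is given above, the ligand JAG1 had 5909.7, 6211, 7039 and 7002 normalized counts in WT Ctr and 13699.8, 13227, 11399 and 12872 in WNK2 trans Ctr (log2 fold change 0.97, SE 0.08, edgeR adjusted p = 1.42e-09), and the Notch target HEY1 had 219 ± 50.3 and 490.3 ± 53.2 (log2 fold change 1.16, SE 0.17, edgeR adjusted p = 1.91e-05). WNT5B, a ligand of chondrocyte maturation, was lower, with 309, 229, 219.6 and 339.8 in WT Ctr and 131, 105, 90.0 and 95.4 in WNK2 trans Ctr (log2 fold change −1.38, SE 0.15, edgeR adjusted p = 2.92e-07). In this list 9 genes were higher without WT Ctr replicate 2, without WNK2 trans Ctr replicate 2, 11 of the 54 passed, and in the fit of the 8 libraries alone 7 passed. In the TGF-beta and BMP list, 11 of 45 tested genes were higher (24.4%, against 5.57% of all tested genes) and 4 lower (8.89%, against 6.98%). All 4 lower genes were ligand or antagonist genes: GREM1, INHBA, INHBB and FST. INHBA, an activin subunit, had 3994, 4013, 4081 and 4979 normalized counts in WT Ctr and 1895, 1871, 1377 and 1796 in WNK2 trans Ctr (log2 fold change −1.30, SE 0.09, edgeR adjusted p = 1.56e-10), and FST, the activin antagonist follistatin, 129.7 ± 18.6 and 71.1 ± 22.5. SMAD6, an inhibitory SMAD that BMP signalling induces, was higher (384 ± 88.1 and 627 ± 60.8, log2 fold change 0.71, edgeR adjusted p = 0.00101). Without WT Ctr replicate 2, 7 genes of the list were higher, and the fit of the 8 libraries alone called 4 of the 45 in place of 15.

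The study names 7 genes for this comparison, and all 7 passed the test, 4 higher (ACAN, COL2A1, TGFB1 and BMP2) and 3 lower (MMP9, GREM1 and IL1B). They were chosen on these samples, so their count is no independent evidence. TGFB1 had 4047, 2604, 2454 and 3417 normalized counts in WT Ctr and 4297, 4193, 5999 and 4113 in WNK2 trans Ctr (log2 fold change 0.57, SE 0.17, edgeR adjusted p = 0.0254). Its groups barely separated, and its call was lost without WT Ctr replicate 2 (adjusted p = 0.0967), WT Ctr replicate 3 (0.0922) or WNK2 trans Ctr replicate 3 (0.101), and without both WT Ctr replicate 2 and WNK2 trans Ctr replicate 3 together (adjusted p = 0.261). BMP2 had 76.0, 67.5, 61.7 and 85.0 in WT Ctr and 118, 129, 94.5 and 110.3 in WNK2 trans Ctr (log2 fold change 0.65, SE 0.17, edgeR adjusted p = 0.0129), with an adjusted p of 0.0516 without WNK2 trans Ctr replicate 2. MMP9, a gelatinase, had 134, 68.7, 71.4 and 119 in WT Ctr and 62.2, 49.2, 58.5 and 65.5 in WNK2 trans Ctr (log2 fold change −0.74, SE 0.22, edgeR adjusted p = 0.0233), and in the fit of the 8 libraries alone it did not pass (adjusted p = 0.136), nor without WT Ctr replicate 1 (0.0838), WT Ctr replicate 4 (0.0738) or WNK2 trans Ctr replicate 2 (0.0807). Without WNK2 trans Ctr replicate 2, 4 of the 7 genes passed, and 3 in the fit of the 8 libraries alone, where TGFB1 (adjusted p = 0.103) and BMP2 (0.0939) did not. Of 23 tested matrix proteases and inhibitors, 4 were higher (17.4%, against 5.57% of all tested genes) and 5 lower (21.7%, against 6.98%). The higher ones were the serine protease HTRA1 (2648 ± 409.9 and 4506 ± 427 normalized counts, log2 fold change 0.77, edgeR adjusted p = 1.97e-06), the plasminogen activator PLAT (1765 ± 151 and 3504 ± 193), the membrane-bound metalloproteinase MMP16 (919.9 ± 213 and 2186 ± 546) and the protease inhibitor SERPINE2 (9244 ± 1892 and 19319.5 ± 1508). The lower ones included MMP9, MMP13 (log2 fold change −0.94), MMP2 (−0.48) and ADAMTS6 (−0.97).

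SPRY1 and SPRY4, feedback inhibitors of growth factor signalling, were higher. SPRY1, a Sprouty inhibitor of FGF signalling, had 668, 731, 658 and 619.9 normalized counts in WT Ctr and 2174, 2061, 2125 and 2199 in WNK2 trans Ctr, a log2 fold change of 1.68 (SE 0.13, edgeR adjusted p = 9.09e-10). SPRY4 went from 580.2 ± 59.8 to 1040.3 ± 44.5, and the transcription factor KLF9 from 1636 ± 109 to 3245 ± 293, while the ligand FGF5 was lower (98.1 ± 25.5 and 34.6 ± 11.9, log2 fold change −1.49, edgeR adjusted p = 0.000123). These 4 genes belong to a list of AP-1 and early genes, Sprouty genes and dual-specificity phosphatases. In that list 8 of 41 tested genes were higher (19.5%, against 5.57% of all tested genes) and 2 lower (4.88%, against 6.98%). In the fit of the 8 libraries alone, 6 passed. Of 36 tested cAMP and CREB genes, 8 were higher (22.2%, against 5.57% of all tested genes) and 1 lower (2.78%, against 6.98%). The phosphodiesterases PDE3A (141 ± 17.1 and 268 ± 52.7) and PDE4A (518 ± 84.5 and 794 ± 51.8) and the adenylyl cyclase ADCY9 (794 ± 82.5 and 1059 ± 41.7) were higher and the scaffold AKAP12 (6002 ± 559 and 3883 ± 521, log2 fold change −0.63, edgeR adjusted p = 4.35e-05) lower. Of this list, 4 were higher without WT Ctr replicate 2, and without WNK2 trans Ctr replicate 1 or 4, 5 were. Of 46 tested ion channel and pump genes, 8 were higher (17.4%, against 5.57% of all tested genes) and 2 lower (4.35%, against 6.98%). They included the sodium pump subunit ATP1B1 (1754 ± 172 and 3515 ± 66.8, log2 fold change 1.00, SE 0.08, edgeR adjusted p = 2.6e-09), the calcium channel CACNA1H (103 ± 17.6 and 298 ± 31.4) and the channel regulator KCTD12 (307 ± 43.6 and 580.3 ± 101) as higher, and the calcium-activated potassium channel KCNMA1 as lower (974 ± 114 and 549 ± 108, log2 fold change −0.83, edgeR adjusted p = 9.1e-05). Of 17 integrins, 2 were higher and 2 lower (11.8% each, against 5.57% and 6.98% of all tested genes). ITGA11, a collagen receptor of fibroblasts, had 1605, 1309.8, 1408 and 1435 normalized counts in WT Ctr and 3731, 3454, 3233 and 3707 in WNK2 trans Ctr (log2 fold change 1.29, SE 0.08, edgeR adjusted p = 2.53e-11), while ITGA2 (log2 fold change 0.55, edgeR adjusted p = 0.0398), ITGA10 (log2 fold change −0.74, edgeR adjusted p = 0.042) and ITGB2 (log2 fold change −1.62, edgeR adjusted p = 0.024) had overlapping groups. A single integrin passed without WT Ctr replicate 2 or WNK2 trans Ctr replicate 4, and without WNK2 trans Ctr replicate 1 or 2, 2 did.

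None of 70 tested ribosomal protein genes and none of 20 histone genes passed in edgeR, with 3 of each list at an unadjusted p under 0.05 and 1 of each called by DESeq2. RPL13A stood at 38341 ± 9281 and 36805 ± 8621 normalized counts. Of 58 tested nuclear genes of the respiratory chain, 3 were lower (5.17%, near the 6.98% of all tested genes): UQCRQ (log2 fold change −0.74, edgeR adjusted p = 0.028), UQCR10 (log2 fold change −0.65, edgeR adjusted p = 0.0451) and ATP5F1A (log2 fold change −0.34, edgeR adjusted p = 0.0464), all with overlapping groups. Leaving out 1 library moved this count from 0 (WT Ctr replicate 2 or WNK2 trans Ctr replicate 1, 2 or 4) to 6 (WT Ctr replicate 3), 8 (WT Ctr replicate 4) and 15 (WNK2 trans Ctr replicate 3), and it was 8 with GC and length correction. Of 13 mitochondrially encoded genes, 2 were higher and 0 lower (15.4% called, near the 12.5% of all tested genes). They were MT-CYB (36929 ± 11163 and 55329 ± 5976, log2 fold change 0.58, edgeR adjusted p = 0.0397) and MT-ND5 (24566 ± 4466 and 33637 ± 3568, log2 fold change 0.45, edgeR adjusted p = 0.0173). WT Ctr replicate 2 was the lowest library of both, and the mitochondrial share of all counts was 2.21% to 3.09% in WT Ctr and 2.96% to 3.66% in WNK2 trans Ctr, whose part in this was not tested. Neither passed without WT Ctr replicate 2 or without WNK2 trans Ctr replicate 3, and 1 of the list passed without WT Ctr replicate 3 or WNK2 trans Ctr replicate 2. Of 22 heat shock genes, 4 were lower, HSP90AA1 (log2 fold change −0.32, edgeR adjusted p = 0.00862) and HSPD1 (log2 fold change −0.29, edgeR adjusted p = 0.00664) among them, and 1 higher (22.7% called, against 12.5% of all tested genes), with 1 called in the fit of the 8 libraries alone and 9 with GC and length correction. Of 36 genes of ER stress and ATF4, 3 were higher and 2 lower (13.9% called, near the 12.5% of all tested genes): DDIT4, an inhibitor of mTORC1, had 729 ± 287 and 1665 ± 241 normalized counts (log2 fold change 1.19, SE 0.22, edgeR adjusted p = 0.000368), MTHFD2 922 ± 172 and 1266 ± 144, DNAJB9 509 ± 48.8 and 640.3 ± 25, and the chaperone HSPA5 was lower (log2 fold change −0.25, edgeR adjusted p = 0.0228). Without WT Ctr replicate 2, WNK2 trans Ctr replicate 1 or WNK2 trans Ctr replicate 4, 3 of them passed, 1 in the fit of the 8 libraries alone and 12 with GC and length correction. Of 23 NRF2 targets, 4 passed (17.4%, against 12.5% of all tested genes). ABCC3 was higher (log2 fold change 0.51, edgeR adjusted p = 0.00751) and PGD (log2 fold change −0.41, edgeR adjusted p = 0.00365), ME1 (log2 fold change −0.46, edgeR adjusted p = 0.00546) and GCLM (log2 fold change −0.31, edgeR adjusted p = 0.0425) lower. The call of GCLM was lost in 11 of 20 settings, and the list had 0 calls in the fit of the 8 libraries alone and 7 without WT Ctr replicate 4 or with GC and length correction. Of 26 YAP and SRF targets, 5 were lower (19.2%, against 6.98% of all tested genes), among them F3, tissue factor (307 ± 39.7 and 147 ± 11.4, log2 fold change −1.06, SE 0.11, edgeR adjusted p = 4.08e-07), ANKRD1 (350.1 ± 107 and 175 ± 10.3), AXL (5639 ± 708 and 3704 ± 379) and NUAK2 (432 ± 54.2 and 259 ± 52.3), and 1 was higher. With GC and length correction 14 of them passed, 5 of these higher, and 4 passed in the fit of the 8 libraries alone. Of 19 circadian clock genes, 0 were higher and 2 lower (10.5% called, near the 12.5% of all tested genes). The median log2 fold change of the list was 0.25, on the other side of 0. The lower genes were BHLHE41 (258 ± 91.0 and 121 ± 27.6, log2 fold change −1.09, edgeR adjusted p = 0.00029) and NPAS2 (207 ± 18.1 and 137 ± 17.9, log2 fold change −0.60, edgeR adjusted p = 0.000872). Without WT Ctr replicate 1, 5 of the list passed.

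Among noncoding genes, the 3 largest rises were RAB11B-AS1 (85.2 ± 5.57 and 265 ± 40.5 normalized counts), FER1L4 (159 ± 31.5 and 409.7 ± 17.0) and APCDD1L-DT (242 ± 44.1 and 522 ± 62.7), and the 3 largest falls LINC01443 (359.9 ± 68.7 and 163 ± 46.4), ENSG00000231405, which has no approved symbol (2118 ± 201 and 1036 ± 177), and MAP3K9-DT (294 ± 21.3 and 169.7 ± 29). RAB11B-AS1 (ENSG00000269386, chromosome 19, 8374373 to 8390685, minus strand) has its lowest coordinate at the base where ANGPTL4 (ENSG00000167772, chromosome 19, 8363289 to 8374373, plus strand) ends. The sources used here do not state that strand was used in counting, so reads of these neighbours may not be told apart. By chromosome, median log2 fold changes ran from −0.09 (chromosome 4) to 0.12 (chromosome 19), and the mitochondrial median over 16 genes was 0.38. The share of tested genes called ran from 9.19% (chromosome 19) to 19% (chromosome 5), and chromosome 15 had 14 genes higher and 59 lower. Over windows of 25 neighbouring tested genes, the median ran from −0.50 (chromosome 2, 159712457 to 168913371) to 0.49 (chromosome 12, 56951431 to 57742157).

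The difference under the transfection label was not the same in both media. In the interaction contrast, 5897 of 16600 genes (35.5%) differed between the isotonic pair of groups and the sorbitol pair (edgeR adjusted p under 0.05). WNK2 differed in that contrast too, as it followed the label under sorbitol and ran against it in isotonic media. A true difference between media and labels that do not hold, in either medium, therefore cannot be told apart in this contrast.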

How the data were processed

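Poly(A) RNA libraries of T/C-28a2 cells were prepared with a NEBNext Ultra kit. Per the study's methods, the authors counted aligned reads with HTSeq and tested them with DESeq2. The submitters' processing notes list FastQC, HISAT2, HTSeq, DESeq2 and the build GRCh38. The authors deposited raw counts per gene for each of the 24 libraries, with 62703 identifiers and no normalization, and 0 other per-sample columns were left unused. Gene symbols matched 62625 identifiers, and GENCODE 29 gave positions for 58279.

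Groups came from the labels. Genes were filtered with filterByExpr (minimum count 10, minimum total 15), which kept 16600, and tested with edgeR 4.0.16 (R 4.3.3; TMM factors, quasi-likelihood test, two-sided) on 24 libraries as 6 group means, with p-values adjusted by Benjamini-Hochberg over the 16600 genes and a threshold of 0.05. The standard error is the log2 fold change divided by the square root of the F statistic. DESeq2 1.42.0, other size factors, filters, thinned counts, a replicate block, a GC and length correction, a fit of the 8 libraries alone, a minimum log2 change of 0.3 and leaving out each library were the alternatives. On simulated counts over 16323 genes for this comparison, edgeR recovered 50.0%, 61.8% and 71.4% of genes changed by 0.7, 1 and 1.5 on the log2 scale, with 4.69% false calls. DESeq2 had 11.4% false calls there. The simulation changed only 60, 68 and 70 genes at these sizes and drew counts from the fitted model. It held no outlying library such as WT Ctr replicate 2, so it does not give the share of false calls in the data. Total counts per library bound the precision, and floors for a count of 0 (3 counts) cover counting error only.

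Genes were named by rule: WNK1 to WNK4, STK39 and OXSR1, the 12 largest rises and falls among called protein-coding genes whose mean log2 CPM reached 3 and whose groups did not overlap, 3 noncoding genes in each direction by the same limits, the genes the study names, up to 4 called genes of each of 33 lists by smallest p (in lists with under 2 calls, the member with the largest count), and defining markers. Other list members given with values were chosen after their values were seen, and some list members are counted but not reported here by name. The comparison and the lists were chosen with earlier results of these data known. Promoter windows came from RefSeq (GRCh38.p14).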

Additional observations from a re-analysis of the deposited data

Results flagged for a closer look

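In 14 of 272 checks of the named genes, a library stood farther from the other 3 of its group than Dixon's 95% critical value for 4 samples; chance flags about 1 in 20 such groups. In the WT Ctr group, replicate 2 was the far library for IGFBP3 (835 normalized counts), ACAN (17.8) and MSMO1 (3199), and replicate 4 for INHBA (4979). In the libraries labelled WNK2 trans Ctr, replicate 3 was the far library for APOE (1183), RRAD (307), TGFB1 (5999), FGF5 (16.9), EPAS1 (3666) and KRT8 (11826), replicate 4 for FOXA1 (216) and BHLHE41 (80.4), replicate 1 for ACAN (223) and replicate 2 for TMOD1 (646).

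The interaction contrast was read for 35 named genes, and 31 differed between media (edgeR adjusted p under 0.05), against 35.5% of all tested genes. Each value is the log2 difference under the transfection label with sorbitol minus that in isotonic media. Genes of the WNK pathway stood at 6.65 (WNK2), 1.82 (STK39) and 0.53 (OXSR1), while WNK1 (0.0035, edgeR adjusted p = 0.993), WNK3 (0.0028, edgeR adjusted p = 0.996) and WNK4 (−0.23, edgeR adjusted p = 0.320) did not pass. All 12 largest rises had a negative value: C3orf80 −6.79, C7 −5.49, THBD −4.79, NOTCH3 −4.75, APOE −4.45, TMOD1 −4.35, IGFBP3 −3.62, THBS2 −3.42, IGFBP5 −3.29, ANGPTL4 −3.02, GRIK2 −2.81 and COL5A3 −1.61. The largest falls after WNK2 had positive values: CXCL8 4.99, CXCL1 3.77, ANXA3 3.56, CEMIP 3.38, GREM1 3.33, RRAD 2.45, FOXA1 2.08, DNER 2.05, PTGES 2.02, C3 2.00 and CXCL6 1.97. Of the other genes the study names, ACAN stood at −3.27, COL2A1 at −2.39, TGFB1 at −1.02, MMP9 at 2.65 and IL1B at 3.00, while BMP2 (−0.45, edgeR adjusted p = 0.140) did not pass. Most of these genes were chosen for their isotonic difference, which enters the contrast with a minus sign, so neither the count nor the signs are independent of that choice. As WNK2 ran against the isotonic labels and was low in WT Sor, a difference between media and labels that do not hold cannot be told apart here.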

How the results depend on the processing

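The count of called genes (2082, with 924 higher and 1158 lower) moved by over 1.5 times in the fit of the 8 libraries alone (747, with 366 higher and 381 lower) and with a test against a minimum log2 change of 0.3 (804, with 378 higher and 426 lower). The 8-library fit called 743 of the 2082 genes. Correcting for GC content and length raised the lower calls to 1831, and to 1761 together with the replicate block. Leaving out 1 library gave 1489 to 2684 calls, with 672 to 1197 higher and 796 to 1487 lower. The smallest count was without WNK2 trans Ctr replicate 4, and 1520 were called without WT Ctr replicate 2. Leaving out WT Ctr replicate 2 and WNK2 trans Ctr replicate 3 together, chosen after seeing the data, gave 1547. DESeq2 called 2581 genes, 2077 of them shared. The median of all genes stayed between −0.02 and 0.03. The cause of these shifts was not tested. The 8-library fit and the left-out libraries use fewer samples, and the 8-library fit also takes its spread from those 8 alone. The main p-values rest on a spread shared by 6 groups, not on that of the compared groups only. Replicate spread differed between groups: the SD of AKR1B1 was 1468 in WT Ctr, 702 in WNK2 trans Ctr, 305 in WT Sor and 4155 in WNK2 trans Sor. Replicate numbers did not pair the samples (correlations of −0.24, 0.03, −0.26 and 0.10 for numbers 1 to 4), and a replicate block gave 2005 calls. Over 135 named genes and 2697 alternative values, 2523 kept their side of the threshold and direction, 154 were no longer called, 3 became called and 17 turned sign. The sign turned in genes that were not called. WNK1 stood at −0.032 with GC and length correction, −0.031 with the block as well, and −0.051 to 0.17 over the left-out libraries, negative without WT Ctr replicate 1 or 2 or WNK2 trans Ctr replicate 1 or 2. WNK4 stood at −0.11 with GC and length correction, with and without the block. WNK3 ran from −0.083 without WT Ctr replicate 1 to 0.22 without both libraries, and was −0.0098 without WNK2 trans Ctr replicate 1. RPL13A ran from −0.23 without WNK2 trans Ctr replicate 3 to 0.079 without WT Ctr replicate 2, and was 0.033 without WNK2 trans Ctr replicate 1. B2M ran from −0.23 without WT Ctr replicate 4 to 0.10 without WT Ctr replicate 2, and was 0.0065 without both libraries. KRT8 stood at −0.0043 with GC and length correction, −0.026 without WNK2 trans Ctr replicate 3, −0.093 without both libraries and 0.23 without WT Ctr replicate 1. Depth limited low genes such as SOX9 and IL33.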
